A study of Mus musculus with 12 samples.

Results

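The genes described here are 10 apolipoproteins: Apoa1, Apoa2, Apoa4, Apoa5, Apob, Apoc1, Apoc2, Apoc3, Apoe and Apoh. They were chosen by name as a gene family, out of 15780 genes that had a named probe set in the deposited table. The rule used no measured value, but earlier results of these data were known when it was made. Each of the 10 had 1 probe set, which stands for the whole gene, so that transcript forms of 1 gene were not separated. All 10 passed the filter on low values, a mean over the 12 arrays of at least 5.57 on the log2 scale, and 9496 genes in all passed it.

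Primary hepatocytes, the main cells of the liver, came from male C57BL/6J mice at 8 weeks of age, wild type (WT) or with a knockout of Cnot6l (KO). Each hepatocyte preparation was split. A portion gave total RNA (input), and from the rest RNA was taken after precipitation with an antibody against CNOT6L (IP). The 4 groups, WT Input, WT IP, KO Input and KO IP, held 3 arrays each, numbered 1 to 3 in the labels and called biological replicates there. The KO was the study's negative control, in which the antibody should find no CNOT6L. Neither the deleted part of Cnot6l nor the number of mice behind a preparation is stated in the labels, and p-values measure the spread between these preparations only. The labels also do not state whether WT and KO preparations of the same number were made together.

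Apolipoproteins are the protein part of lipoproteins, the particles that carry cholesterol and triglycerides in blood, and the hepatocyte is the main source of most of them. APOB is the structural protein of very low density and low density lipoprotein, APOA1 and APOA2 are the main proteins of high density lipoprotein, and APOE and the small C proteins move between particles and govern their lipolysis and uptake. CNOT6L is one of the enzymes with which the CCR4-NOT complex removes poly(A) tails, a step that starts the decay of an mRNA. The arrays ask which mRNAs a CNOT6L precipitate holds in excess of its input, and by more in the WT than in the KO.

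The Cnot6l probe set read between 8.44 and 9.51 in the WT inputs and between 9.12 and 9.34 in the KO inputs. Its ranges overlapped. Where its probes lie relative to the deletion is not known here, so that the value checks nothing, and WT and KO below are the labels. Of 14 hepatocyte markers, 12 were on the array and 11 were tested, with Alb highest at a mean of 14.69 and Pck1 lowest at 3.61. Kupffer cell and macrophage markers were mostly low, with Clec4f at 5.42, Vsig4 at 4.16 and Marco at 4.01. Of the 11, 2 were tested, Csf1r at 5.87 and Cd68, which other cells also express, at 11.29. The enterocyte, the other site of apolipoprotein synthesis, had 4 markers on the array, with Vil1 at 6.72, Fabp2 at 5.80, Alpi at 4.76 and Lct at 3.87. Precipitates differed from inputs in array controls too. The poly(A) spike controls exceeded those of the input by 5.11 in the precipitates, as a mean over the 6 preparations (4.39 to 6.09). The hybridization controls exceeded those of the input by 3.83 (2.96 to 4.94). The 3' to 5' gap of the Gapdh controls was 1.21 larger (0.85 to 1.95), all in log2 units. Every precipitate array had a smaller SD over its probe sets than its input, with a mean difference of -0.25. How far these differences enter the IP against input values below was not tested.

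Most members were bright on these arrays. The highest member on each array lay 0.92 to 1.69 below that array's highest probe set on the log2 scale, and array medians were 6.31 to 6.45. Apoa5 alone was near the filter, with group means from 6.42 to 6.77. Levels of different probe sets are not set against each other, because probes differ in affinity.

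**Figure D1:**
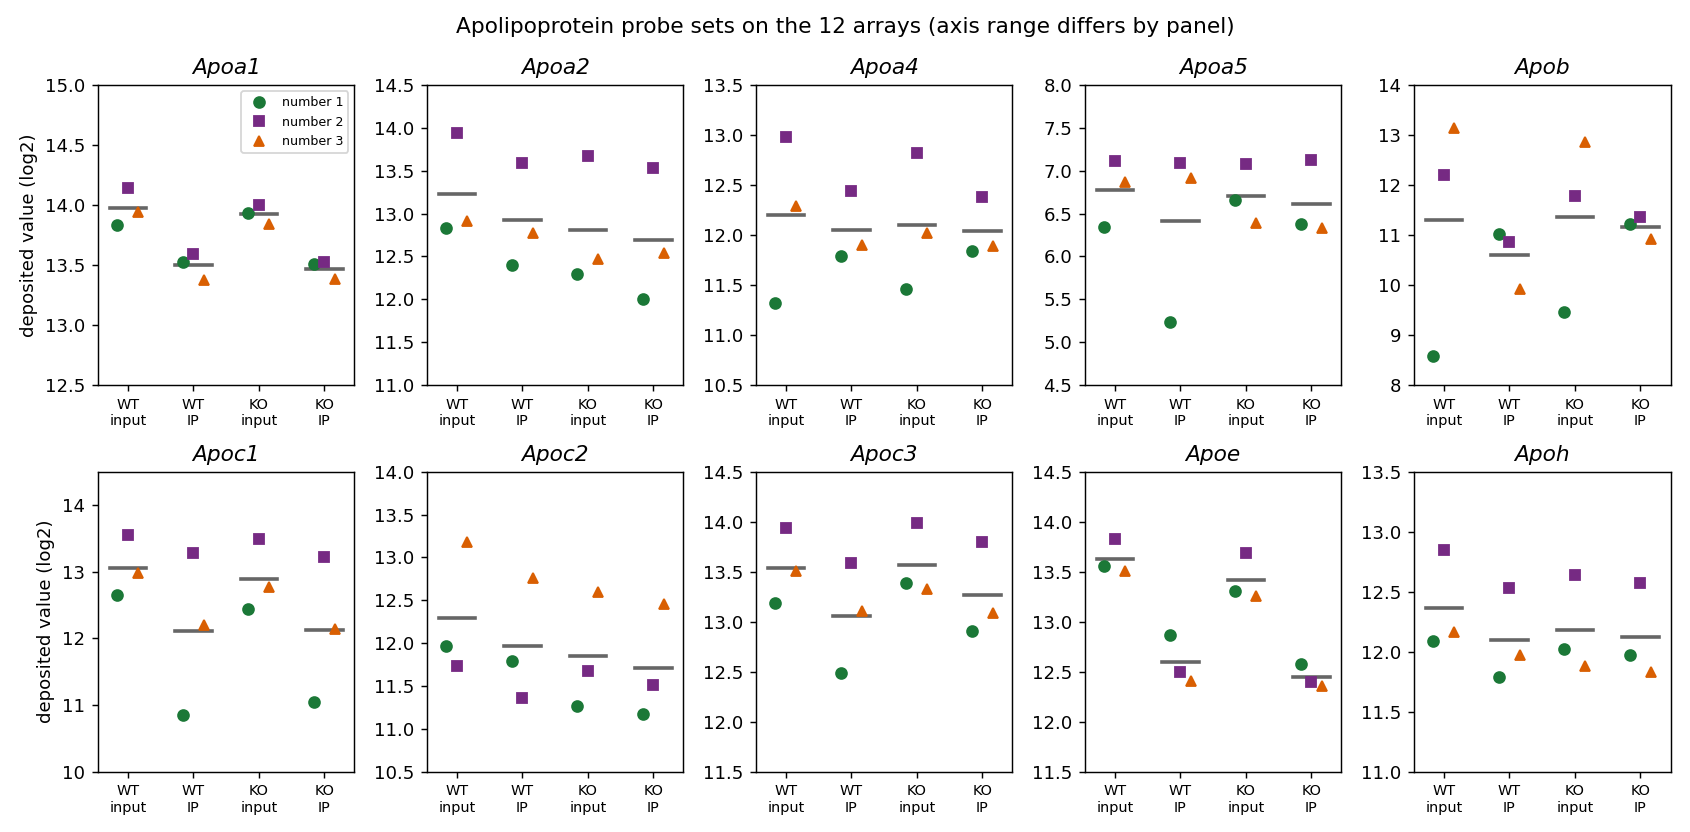
Deposited log2 value (y axis, range differs by panel) of each apolipoprotein probe set on the 12 arrays, by group (x axis). Symbols give the replicate number in the labels and bars give the group mean; Apoa1 and Apoe are lower in both IP groups with no overlap, Apob spreads from 8.58 to 13.14 in the WT inputs, and in Apoa2, Apoc1, Apoc3 and Apoh the arrays of number 2 are highest in every group.

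The promoters of 3 members are printed because these genes carry the patterns that follow, Apob the widest spread and Apoa1 and Apoe the separation of precipitate from input. The sequences are the 200 bases before the annotated start in RefSeq, build GRCm38.p6, read 5′ to 3′ on the gene's strand: Apob at chr12:7977477-7977676 (plus strand), Apoa1 at chr9:46228430-46228629 (plus strand) and Apoe, for the first of its 3 listed starts, at chr7:19699189-19699388 (minus strand). Capitals mark matches to TATAAA, the core of a TATA box, and to CAAAGGTC or CAAAGTCC, site elements of the kind bound by HNF4A, a regulator of many apolipoprotein genes; both strands were searched.
Apob: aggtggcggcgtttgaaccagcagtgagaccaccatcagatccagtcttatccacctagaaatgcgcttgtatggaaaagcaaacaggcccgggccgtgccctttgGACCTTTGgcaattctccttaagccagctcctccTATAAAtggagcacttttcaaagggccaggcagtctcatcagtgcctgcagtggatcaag
Apoa1: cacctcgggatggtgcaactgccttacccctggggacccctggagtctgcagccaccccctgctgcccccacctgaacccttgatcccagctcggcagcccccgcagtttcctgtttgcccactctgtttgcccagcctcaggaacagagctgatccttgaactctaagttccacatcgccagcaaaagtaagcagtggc
Apoe: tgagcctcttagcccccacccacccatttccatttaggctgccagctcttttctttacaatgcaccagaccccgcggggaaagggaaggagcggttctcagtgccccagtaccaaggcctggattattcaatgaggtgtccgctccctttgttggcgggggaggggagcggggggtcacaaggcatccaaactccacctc
The Apob window holds TATAAA, with its first base 60 bases before the start, and the reverse complement of CAAAGGTC, which begins 94 bases before the start. The promoter table held 8 of the 10 members, with 12 windows, and not Apoc1 or Apoc3. TATAAA was found in windows of Apob, Apoa5 and Apoe (for Apoe at its second start), against 9.96% of all 32851 windows of this length. The shares here are per window, while the members are counted by gene, with up to 3 windows each. The 2 windows of Apoa5 overlap and hold the same match, so that the counts and shares are not directly comparable. CAAAGGTC was found for Apob and for none of the other members in the table, against 0.849% of all windows, and CAAAGTCC for no member, against 0.956%. These matches are descriptions of letters and not of bound sites. By the RefSeq gene table, Apoa1, Apoc3, Apoa4 and Apoa5 are neighbours on chromosome 9, and Apoc1 and Apoe are neighbours on chromosome 7, with Apoc4 between Apoc2 and Apoc1.

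Apob, the structural protein of the particles that the liver secretes, varied most among the members. Its deposited log2 values were 8.58, 12.21 and 13.14 in WT Input 1, 2 and 3 and 11.02, 10.85 and 9.92 in WT IP 1, 2 and 3. In the KO they were 9.46, 11.78 and 12.85 in the inputs and 11.21, 11.37 and 10.91 in the precipitates. Input number 1 was far below inputs 2 and 3 in both genotypes, while the precipitates spanned a narrow range that lay inside that of the inputs. The group means were 11.31 ± 2.41 (SD, n = 3) for WT Input, 10.60 ± 0.59 for WT IP, 11.36 ± 1.73 for KO Input and 11.16 ± 0.23 for KO IP. Its SD over the 12 arrays, 1.33, was at the 97.9th percentile of all genes tested, with 198 genes above it. The difference of IP from input in the same preparation was 2.44, -1.35 and -3.21 in WT 1, 2 and 3 and 1.75, -0.41 and -1.94 in KO 1, 2 and 3. The sign thus turned between number 1 and the others in both genotypes. The mean differences, -0.71 in the WT (95% interval -2.98 to 1.56) and -0.20 in the KO (-2.47 to 2.07), stand for no single preparation. Without the arrays of number 1 they were -2.28 and -1.18, and with other arrays left out they reached 0.54 and 0.67. The poly(A) spike controls split the inputs in the same way, at 4.94 in WT Input 1 and 4.90 in KO Input 1 against 8.61 to 8.89 in the other 4 inputs. They split the precipitates too, at 10.96 in WT IP 1 and 10.98 in KO IP 1 against 13.10 to 13.71 in the other precipitates. There Apob did not follow, and its value in precipitate 1 was the lowest in neither genotype. The 3' to 5' gap of Gapdh was largest in number 3 of every group, where Apob was highest in the inputs and lowest in the precipitates. Whether these controls share a source with the Apob values was not tested.

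Apoa1, the main protein of high density lipoprotein and the activator of the enzyme LCAT, was the steadiest member. It read 13.83, 14.14 and 13.94 in the WT inputs and 13.52, 13.59 and 13.38 in the WT precipitates. The KO inputs read 13.93, 14.004 and 13.84 and the KO precipitates 13.51, 13.52 and 13.38. Every precipitate was below every input in both genotypes. IP minus input was -0.47 in the WT (SE 0.233, limma adjusted p = 0.512) and -0.46 in the KO (SE 0.233, limma adjusted p = 0.503), and neither passed the test.

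Apoa2, the second protein of high density lipoprotein, followed the replicate number. Its values were 12.83, 13.93 and 12.91 in the WT inputs, 12.40, 13.59 and 12.77 in the WT precipitates, 12.30, 13.67 and 12.47 in the KO inputs and 12.00, 13.53 and 12.54 in the KO precipitates. In each group number 2 stood well above the other arrays, and the 4 groups overlapped. IP minus input in the same preparation was -0.43, -0.34 and -0.14 in the WT and -0.30, -0.14 and 0.06 in the KO. The means were -0.31 and -0.12, with an SE of 0.513 without a block and 0.193 with the preparation as a block, and neither fit called them (blocked limma adjusted p = 0.328 and 0.699).

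Apoe, the ligand by which the LDL receptor and related receptors clear remnant particles, separated the fractions most widely. The WT inputs read 13.56, 13.83 and 13.50 and the WT precipitates 12.87, 12.50 and 12.41. In the KO the inputs read 13.30, 13.69 and 13.26 and the precipitates 12.58, 12.40 and 12.36. All 6 precipitates lay below all 6 inputs. The precipitate was 2.05-fold lower than the input in the WT, a difference of -1.04 ± 0.258 (SE), and 1.96-fold lower in the KO, a difference of -0.97 ± 0.258. Without a block for the preparation, limma's adjusted p was 0.172 in the WT and 0.222 in the KO. With the preparation as a block, the adjusted p was 0.0324 and 0.0405, so that Apoe passed the threshold of 0.05 in both genotypes. That call was lost when the same blocked fit was made after quantile normalization, with limma adjusted p = 0.057 in the WT and 0.0939 in the KO at differences of -0.98 and -0.91. In that fit 1.67% of all genes were called lower and 1.81% higher in the WT, and 0.316% lower and 0.0316% higher in the KO.

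The C apolipoproteins regulate lipolysis. APOC2 is the cofactor of lipoprotein lipase, and APOC3 and APOC1 restrain lipolysis and uptake. Apoc1 read 12.65, 13.55 and 12.98 in the WT inputs, 10.86, 13.28 and 12.20 in the WT precipitates, 12.44, 13.49 and 12.77 in the KO inputs and 11.04, 13.22 and 12.14 in the KO precipitates. Precipitate 1 was the lowest array in both genotypes, and precipitate 2 lay within the range of the inputs. IP minus input in the same preparation was -1.79, -0.27 and -0.78 in the WT and -1.39, -0.27 and -0.63 in the KO, below 0 in all 6. The mean differences were -0.95 (SE 0.634, limma adjusted p = 0.623) and -0.76 (SE 0.634, limma adjusted p = 0.709), and with the preparation as a block the adjusted p was 0.106 and 0.167.

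Apoc3 read 13.19, 13.93 and 13.50 in the WT inputs and 12.49, 13.58 and 13.11 in the WT precipitates. The KO inputs read 13.39, 13.99 and 13.32 and the KO precipitates 12.90, 13.80 and 13.09. Number 2 was again highest in each group, and inputs and precipitates overlapped. IP minus input was -0.48 in the WT and -0.30 in the KO (SE 0.372, or 0.194 with the preparation as a block), lower in 6 of 6 preparations, without passing the test in either fit. Apoc2 read 11.97, 11.73 and 13.18 in the WT inputs, 11.79, 11.36 and 12.76 in the WT precipitates, 11.27, 11.67 and 12.59 in the KO inputs and 11.17, 11.52 and 12.46 in the KO precipitates. It was the only member with number 3 highest in every group. The IP minus input differences of Apoc2 were small, -0.32 in the WT and -0.13 in the KO (SE 0.525, or 0.185 with the block).

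Apoa4, which the intestine and liver release with triglyceride-rich particles, read 11.32, 12.98 and 12.29 in the WT inputs, 11.79, 12.44 and 11.90 in the WT precipitates, 11.46, 12.82 and 12.02 in the KO inputs and 11.84, 12.38 and 11.89 in the KO precipitates. As for Apob, the precipitates spanned less than the inputs, and IP minus input was above 0 in number 1 (0.47 in the WT, 0.38 in the KO) and below 0 in numbers 2 and 3. Apoa5, which promotes lipolysis at the vessel wall and is made in the liver, read 6.34, 7.12 and 6.86 in the WT inputs, 5.24, 7.09 and 6.92 in the WT precipitates, 6.65, 7.08 and 6.39 in the KO inputs and 6.38, 7.12 and 6.33 in the KO precipitates. Apart from WT IP 1, its arrays lay between 6.33 and 7.12, and the groups overlapped. Apoh, or beta-2-glycoprotein I, a plasma protein that binds anionic phospholipids, read 12.09, 12.84 and 12.16 in the WT inputs, 11.79, 12.53 and 11.97 in the WT precipitates, 12.03, 12.64 and 11.88 in the KO inputs and 11.98, 12.57 and 11.83 in the KO precipitates. Its IP minus input values were below 0 in all 6 preparations, by -0.27 on average in the WT and -0.06 in the KO (SE 0.347, or 0.183 with the block).

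Over the family, the mean IP minus input difference was below 0 for all 10 members in the WT, from -1.04 (Apoe) to -0.15 (Apoa4), and for all 10 in the KO, from -0.97 (Apoe) to -0.06 (Apoh). Most other genes were below 0 too: of 9496 genes tested, 3949 were above 0 in the WT and 3240 in the KO. After quantile normalization the KO difference was above 0 for Apoa4 (0.07), Apoc2 (0.04) and Apoh (0.07), and that scaling moved the median of all genes in this comparison by 0.165. The median over the members was -0.42 in the WT, against -0.11 over all genes tested and -0.37 over the 11 tested hepatocyte markers. In the KO it was -0.17, against -0.21 over all genes and -0.39 over the hepatocyte markers. After quantile normalization the median over the members was -0.39 in the WT, against -0.04 over all genes, and -0.02 in the KO, against -0.04. Groups did not overlap, with the precipitates lower, for Apoa1 and Apoe in both genotypes, 2 of 10 members, where 7.59% of all genes behaved so in the WT and 10.1% in the KO. For no member did the precipitates lie above the inputs without overlap, against 7.72% and 5.31% of all genes. All 3 WT preparations had the precipitate lower in 7 members, against 33% of all genes, and all 3 KO preparations in 6 members, against 35.3%. Apoa1, Apoc1, Apoc2, Apoc3, Apoe and Apoh were lower in the precipitate in all 6 preparations (6 of 10 members, against 23.3% of all genes), and no member was higher in all 6, against 6.54%. These counts are on the deposited scale. The shares are over genes of all levels, while most members were bright, and genes of like level were not compared.

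**Figure D2:**
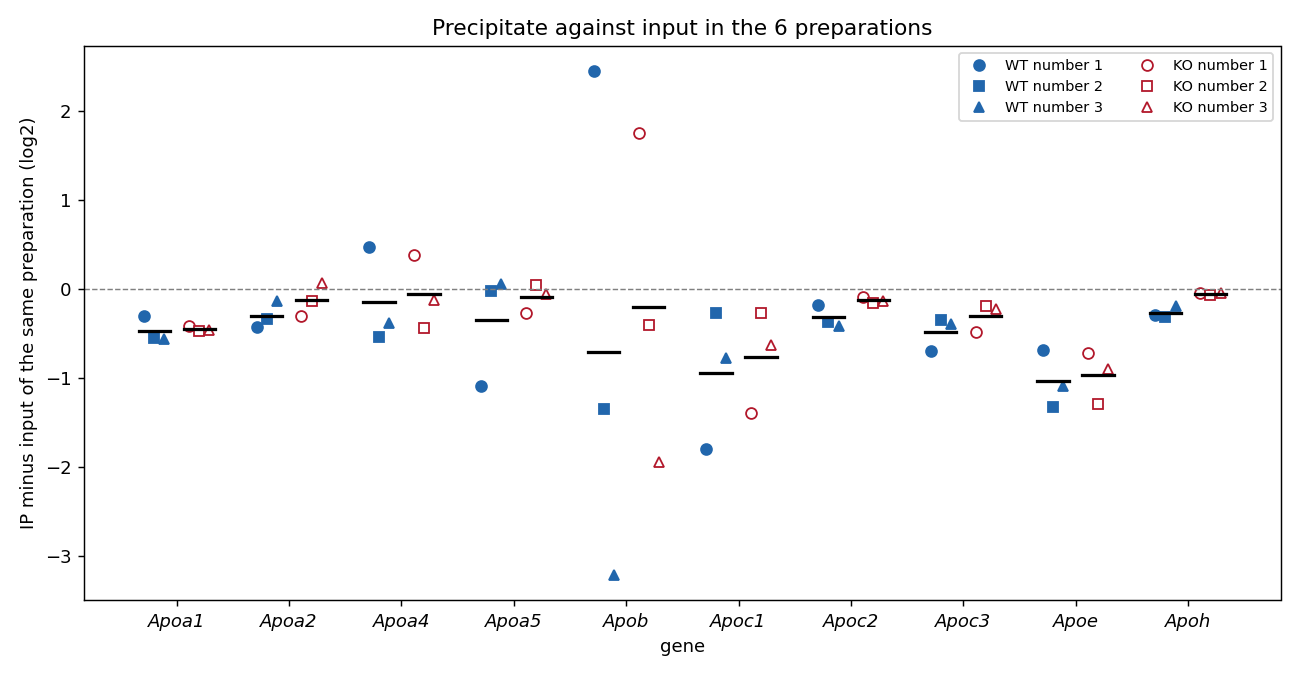
Difference of precipitate from input in the same preparation (log2, y axis) for each apolipoprotein (x axis); filled symbols are the 3 WT and open symbols the 3 KO preparations, and bars are group means. Apoe lies between -0.69 and -1.33 in all 6 preparations, and Apob runs from 2.44 to -3.21.

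No apolipoprotein was called by limma without a block in either comparison, where 0.105% of all genes were called higher and 0% lower in the WT, and 0% in either direction in the KO. At an unadjusted p under 0.05, Apoe alone was lower in each genotype, 1 of 10 members, against 6.03% of all genes in the WT and 8% in the KO. With the preparation as a block, 1 of 10 members, Apoe, was called lower in each genotype, where 4.61% of all genes were called lower in the WT and 5.28% in the KO, and no member was called higher, against 2.41% and 0.727%. At an unadjusted p under 0.05, the blocked fit had 4 members lower in the WT (Apoa1, Apoc1, Apoc3 and Apoe) and 3 in the KO (Apoa1, Apoc1 and Apoe), against 18.4% and 22.3% of all genes.

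Specific enrichment was the IP minus input difference of the WT less that of the KO, the measure in which the knockout takes off what the precipitation brings down without CNOT6L. It was below 0 for all 10 members, from -0.51 (Apob) to -0.02 (Apoa1), also after quantile normalization and after subtraction of array medians. Each of the 10 was above 0 with some single array left out. Leaving out 1 array keeps its number in the other groups, so that those values also hold differences between numbers. The median of the members was -0.18, against 0.05 over all genes tested, of which 5296 of 9496 were above 0. No member was called by limma in either direction, with or without a block, where 0.0105% of all genes were called higher and 0% lower without a block, 0.0211% higher with the preparation as a block and 0.358% higher with the number as a block inside each fraction. No member had an unadjusted p under 0.05 in any of these fits. Without a block the intervals were wide against the values. For Apoe the value was -0.06 with a 95% interval of -0.86 to 0.73, for Apoa1 -0.02 with -0.74 to 0.70, and for Apob -0.51 with -3.72 to 2.70. With the preparation as a block the Apoe interval was -0.77 to 0.64 and the Apob interval -3.64 to 2.62. With the number as a block inside each fraction, a fit not planned beforehand, the SE was smaller. It was 0.395 for Apob, 0.185 for Apoa1 and 0.186 for Apoe, against 1.47, 0.329 and 0.365 without a block. In 5 members, Apoa2, Apoc1, Apoc2, Apoc3 and Apoh, all 3 same-number differences were below 0, against 13.7% of all genes. Apoh, for example, had -0.25, -0.25 and -0.14 and Apoc3 -0.21, -0.16 and -0.16. Apob had 0.70, -0.94 and -1.27, with number 1 again of the opposite sign.

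The WT and KO precipitates were compared directly. The differences of WT IP from KO IP ran from -0.56 (Apob) to 0.26 (Apoc2), 5 members above 0 and 5 below, with a median of -0.01 over the members and 0.04 over all genes tested. Of the 9496 genes tested, 5136 were above 0. No member was called by limma, and none had an unadjusted p under 0.05, with or without a block, where 0.253% of all genes were called higher in the WT precipitate and 0% lower without a block. A block for the replicate number gave shares of 2.33% and 0.126%, and a block for the number inside each fraction 3.58% and 0.421%. In no member were the groups free of overlap, against 5.44% of all genes with the WT higher and 1.35% with the WT lower. Apob was lower in the WT precipitate in each same-number difference, at -0.19, -0.51 and -0.99, 1 of 10 members where 14.2% of all genes did so. Apoa2 and Apoe were higher in each, Apoe at 0.29, 0.10 and 0.06, against 20.1% of all genes. Among the values near 0, 3 changed sign with the scaling, Apoa1 and Apoa4 to -0.03 and -0.05 after subtraction of array medians and Apoh, at -0.03 as deposited, to just above 0 after quantile normalization.

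The input arrays show the steady-state RNA of the hepatocytes, in which fewer cells of a type and less RNA per cell cannot be told apart. KO Input minus WT Input ran from -0.45 (Apoc2) to 0.06 (Apob), with 8 of 10 members below 0 and a median of -0.13, against 0.02 over all genes tested. Of the 9496 genes tested, 5121 were above 0. No member was called, and no gene at all was called by limma in this comparison in either direction (0% of 9496), with or without a block. At an unadjusted p under 0.05 there were 3 genes higher and 2 lower without the block, and 23 and 30 with it. Without a block no member had an unadjusted p under 0.05. Apoa2 was 1.33-fold lower in the KO inputs, at -0.41 (95% interval -1.53 to 0.71), and lower in each same-number difference, at -0.53, -0.27 and -0.44. With the replicate number as a block its interval was -0.80 to -0.02 and its unadjusted p 0.0409, which did not survive adjustment (limma adjusted p = 1). Apoc2 was at -0.70, -0.06 and -0.59 by number, and its blocked interval of -0.90 to 0.01 included 0. Apoe was 1.16-fold lower at -0.21 (-0.78 to 0.35). All 3 same-number differences were below 0 in 5 members, Apoa2, Apoc1, Apoc2, Apoe and Apoh, against 13% of all genes, and above 0 in none, against 16.1%. The groups overlapped in every member, where 0.958% of all genes had the KO inputs lower and 0.663% higher without overlap.

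**Figure D3:**
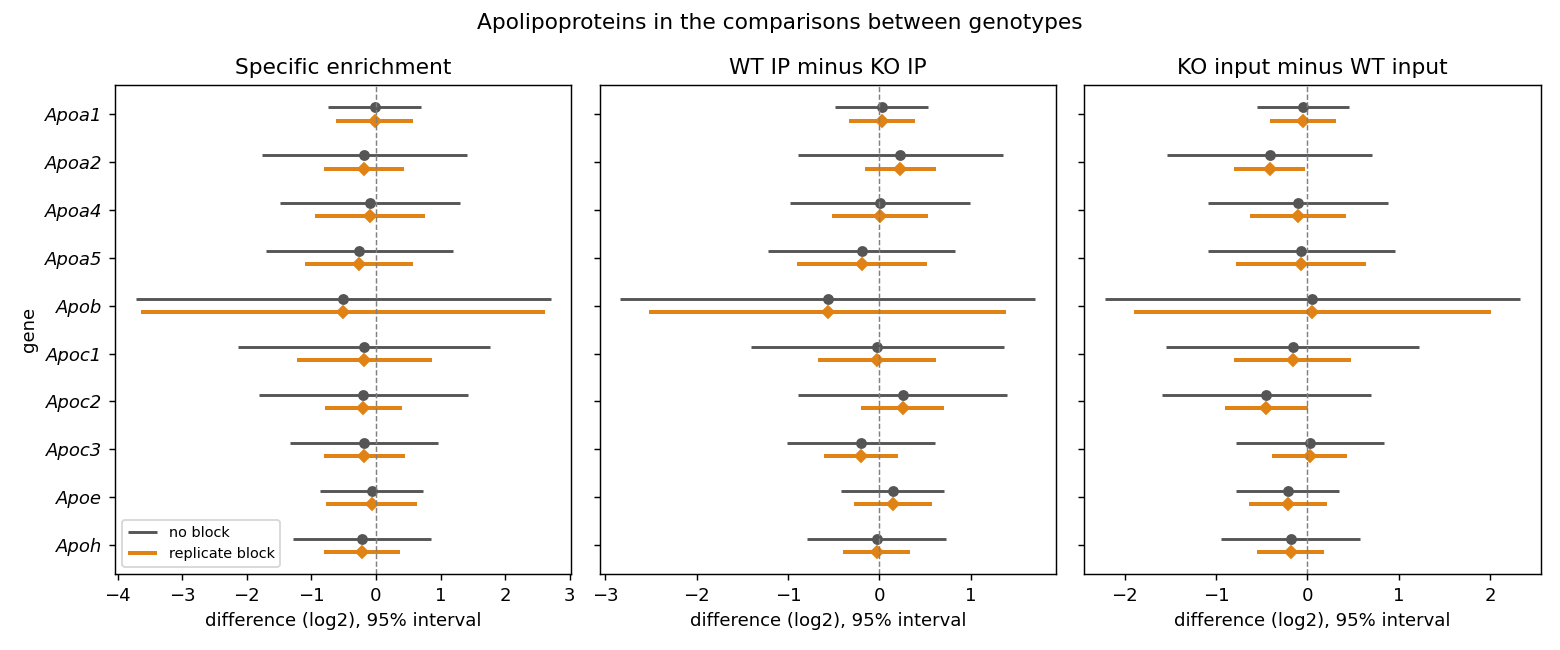
Differences on the log2 scale (x axis, range differs by panel) with 95% intervals for each apolipoprotein (y axis) in specific enrichment, WT IP minus KO IP and KO Input minus WT Input. Grey is the fit without and orange the fit with a replicate block; intervals include 0 throughout, except that of Apoa2 between inputs with the block (-0.80 to -0.02), and those of Apob are widest.

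The replicate number in the labels, shared by the 4 groups, took the largest share of the variance in 7 of the 10 apolipoproteins. The number took 87.8% of the variance over the 12 arrays in Apoh, 86.7% in Apoa2, 81.9% in Apoc2, 80.3% in Apoa4, 68.3% in Apoc3, 62.8% in Apoc1 and 55.4% in Apoa5. In these 7 the number held over 50% of the variance, which was so in 47.2% of all genes tested. Genotype took 8.06% at most, in Apoc2. Apoa1 and Apoe departed from this, with 86.3% and 87.8% of their variance by fraction and 8.94% and 3.36% by number. Apob had 57.3% in the interaction of fraction with number and 33.5% by number.

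Number 2 was the highest array in all 4 groups in 7 members, Apoa1, Apoa2, Apoa4, Apoa5, Apoc1, Apoc3 and Apoh. Number 1 was the lowest in all 4 groups in Apoa2, Apoa4 and Apoc1. Apoc2 had number 3 highest throughout. The share of all genes with such an order was not counted, so that these orders are not set against the other genes. Hepatocyte markers (12 of 14 on the array) had a mean of 9.96, 10.47 and 9.44 over the arrays of number 1, 2 and 3, but did not move as one. Number 2 was highest for 7 of the 12, Cyp2e1 among them at 10.08, 12.96 and 8.79, number 1 for 3, with Hnf4a at 9.02, 8.34 and 7.59, and number 3 for 2, Trf and Fgb, which were lowest in number 2. Their mean per array ran from 9.497 to 10.71 in WT Input, 9.40 to 10.50 in WT IP, 9.51 to 10.51 in KO Input and 9.34 to 10.17 in KO IP. Sinusoidal endothelial markers were at 5.29, 5.33 and 5.93 by number, and stellate cell and fibroblast markers at 5.32, 5.39 and 6.02. The part of cell makeup in the pattern by number was not tested.

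**Figure D4:**
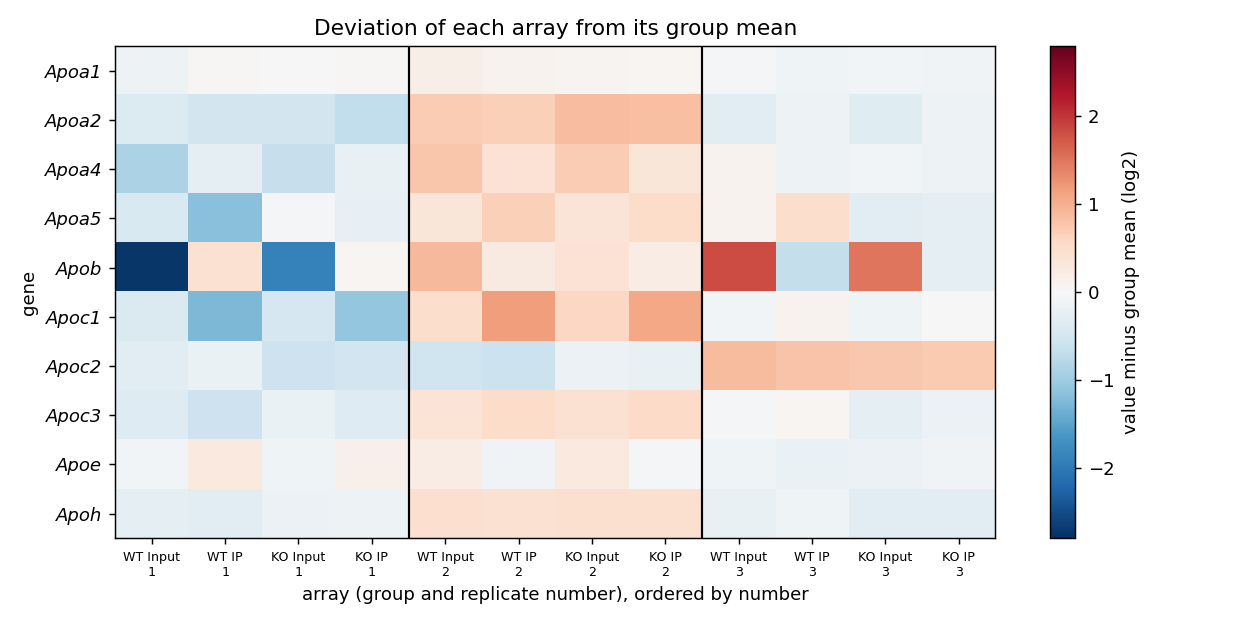
Deviation of each array from its group mean (log2, colour) for each apolipoprotein (rows), with the 12 arrays (columns) ordered by replicate number. Number 2 is above its group mean in Apoa2, Apoa4, Apoc1, Apoc3 and Apoh, number 3 in Apoc2, and inputs and precipitates deviate in opposite directions for Apob in numbers 1 and 3.

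Some pairs of members tracked each other over the 12 arrays, which share their fractions and numbers. The number took a median of 47.5% of the variance over all genes tested, and pairs of members were not set against pairs of other genes. The Pearson correlation was highest for Apoa1 with Apoe (0.95), Apoc1 with Apoc3 (0.94) and Apoa2 with Apoh (0.93). Other pairs were low, such as Apoa5 with Apoe at 0.12 and Apoa5 with Apob at 0.18. Apoc2 had correlations between -0.35 (Apoh) and 0.33 (Apob) with the other members. Among neighbours in the genome the correlation was 0.61 for Apoa1 with Apoc3, 0.74 for Apoc3 with Apoa4, 0.60 for Apoa4 with Apoa5 and 0.43 for Apoc1 with Apoe. Over the same 12 arrays the genes most like Apob, the member with the largest specific enrichment in size, were Setd5 (r = 0.91), Alkbh8 (r = 0.88) and Cenpj (r = 0.87). Setd5 had inputs of 6.13, 7.59 and 8.76 in the WT and precipitates of 7.40, 7.64 and 6.83, with the inputs spread wider than the precipitates as in Apob.

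Lists of other genes of lipoprotein metabolism were set beside the family. No gene of any list was called by limma without a block in any of the 5 comparisons. Of 20 other lipoprotein-associated proteins 15 were tested, with a median IP minus input of -0.56 in the WT and -0.25 in the KO. Without a block, 1 was lower in the WT and 1 higher in the KO at an unadjusted p under 0.05, against 573 and 282 of all 9496 genes. Pltp, the phospholipid transfer protein that remodels high density lipoprotein, went the other way from the apolipoproteins. It read 5.66, 5.48 and 6.08 in the KO inputs and 6.999, 6.63 and 7.57 in the KO precipitates, without overlap, as did 5.31% of all genes with the KO precipitates higher. Its difference of 1.32 in the KO was called with the preparation as a block (limma adjusted p = 0.0244), where 0.727% of all genes were called higher. That of 0.69 in the WT was not called (adjusted p = 0.0876), and the specific enrichment of Pltp, -0.63, did not pass. The KO call of Pltp was lost in the blocked fit after quantile normalization, at 1.38 (limma adjusted p = 0.0673). Saa1, an acute phase apolipoprotein, was at -0.81 in the WT and -0.69 in the KO, Lcat, which esterifies cholesterol on high density lipoprotein, at -0.80 and -0.70, and Apom, the carrier of sphingosine-1-phosphate, at -0.10 and 0.35, none of them called.

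Of 23 genes of lipoprotein assembly and secretion 19 were tested, with medians of -0.43 in the WT and -0.45 in the KO, and none was called with or without a block. At an unadjusted p under 0.05 and without a block, 1 of them was lower in the KO and none in the WT, against 8% and 6.03% of all genes. Sar1b, the GTPase of the vesicles that export chylomicrons and very low density lipoprotein from the endoplasmic reticulum, was at -0.55 in both genotypes (SE 0.271). Its inputs read 12.13 to 12.27 and its precipitates 11.21 to 11.94 over both genotypes, without overlap. Precipitates were lower without overlap in 7.59% of all genes in the WT and 10.1% in the KO. Cideb, a lipid droplet protein, was at -0.49 and -0.45. Sec24d, a coat protein of those vesicles, and Fitm1 had specific enrichments of 0.67 and -0.59 that did not pass.

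Among receptors and transporters, 14 of 21 were tested, and the medians were -0.13 in the WT and -0.28 in the KO. At an unadjusted p under 0.05 without a block, 1 was higher and 1 lower in the WT, against 435 and 573 of all 9496 genes. With the block, 1 of 14 was called higher in the WT precipitate, Vldlr, the receptor for very low density lipoprotein and APOE, at 1.13 (limma adjusted p = 0.024), and 1 lower, Lsr, a receptor for remnant particles, at -1.09 (adjusted p = 0.0402). Over all genes that fit called 2.41% higher and 4.61% lower. After quantile normalization the blocked fit kept the call of Vldlr, at 1.25 (limma adjusted p = 0.024), and lost that of Lsr, at -0.94 (adjusted p = 0.0899). Without that normalization these genes were in the KO at 0.52 (adjusted p = 0.15) and -0.97 (adjusted p = 0.0558) with the block, and the specific enrichment of Vldlr, 0.61, did not pass (adjusted p = 0.911). Abcg5, a sterol exporter, had a specific enrichment of 0.80 that did not pass. Among lipases and their regulators, 12 of 18 were tested, none was called with or without a block, none had an unadjusted p under 0.05 without a block in either IP against input comparison, and the medians were -0.18 and -0.27. Gpihbp1, which anchors lipoprotein lipase, was at 0.85 in the WT and 0.18 in the KO, and Ces1g, a hepatic carboxylesterase, at -0.49 and -0.12.

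Of 24 transcriptional regulators of apolipoprotein genes 20 were tested, with medians of -0.07 in the WT and -0.26 in the KO and a median specific enrichment of 0.12. At an unadjusted p under 0.05 without a block, 1 was higher in the WT and 2 were lower in the KO, against 435 and 760 of all 9496 genes. Nr0b2, which encodes the repressor SHP, read 6.94, 7.02 and 6.82 in the WT inputs, 7.76, 8.06 and 8.05 in the WT precipitates, 6.74, 6.76 and 6.30 in the KO inputs and 6.89, 7.05 and 6.81 in the KO precipitates. The WT precipitates were above all other arrays, an order that was not counted over all genes. Of all genes, 7.72% had the WT precipitates above the WT inputs without overlap, and 5.44% had them above the KO precipitates. With the block Nr0b2 was called in WT IP against WT Input, at 1.03 (limma adjusted p = 0.0258), and in WT IP against KO IP, at 1.04 (adjusted p = 0.0164). Over all genes 2.41% and 2.33% were called higher in these 2 comparisons. The specific enrichment of Nr0b2, 0.71, did not pass (adjusted p = 0.708). Foxa1, a pioneer factor of liver genes, was at 0.83 in WT IP against KO IP, which passed only with the number as a block inside each fraction (limma adjusted p = 0.0228). That fit called 3.58% of all genes higher. The specific enrichment of Foxa1, 0.85, did not pass. Srebf1, a regulator of lipogenesis, was called higher in WT IP against WT Input with the block, at 1.001 (adjusted p = 0.0388), against 2.41% of all genes. Rora, a nuclear receptor, was called lower in KO IP against KO Input, at -1.85 (adjusted p = 0.0399), against 5.28% of all genes. The blocked fit after quantile normalization kept both calls of Nr0b2 (limma adjusted p = 0.036 and 0.0477) and that of Srebf1 (adjusted p = 0.0443), and lost that of Rora, at -1.77 (adjusted p = 0.101). Both stand here as the remaining genes of the list that passed.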

How the data were processed

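RNA from 12 hepatocyte fractions was hybridised to Affymetrix Mouse Genome 430 2.0 arrays, 1 array each. The deposited values are on the log2 scale, read so from their range, with 1 value per gene-based probe set (16539 in all). How the authors corrected, normalized and summarised the signals was not given in the sources used here. Gene symbols came from the platform annotation: 15780 probe sets had 1 symbol, 64 were controls and 695 had none. The number of arrays limits the precision.

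Group means of the 4 groups were fitted with limma 3.58.1 in R 4.3.3 on all 12 arrays (8 residual degrees of freedom, empirical Bayes, two-sided, Benjamini-Hochberg over 9496 genes at or above the 40th percentile of mean value; threshold 0.05). Specific enrichment is the interaction of fraction and genotype. The replicate block used the preparation (4 residual degrees of freedom) for IP against input and specific enrichment, and the replicate number (6) between genotypes. Same-numbered arrays deviated together from their group means (r = 0.453 to 0.936 over 18 pairs, against -0.711 to 0.0685 for other numbers), input and IP of a number are 1 split preparation per the labels, and so the numbers pair the arrays. Variance shares are sums of squares over the 12 arrays. Scripts were tested on simulated data.

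The members and gene lists were chosen with earlier results of these data known. All 10 members were named, and of each list the up to 2 genes with the smallest p in specific enrichment and in WT IP against WT Input. Srebf1 and Rora fall outside that rule and were named after their values were seen. Alternatives were the block, quantile normalization, subtraction of array medians, no filter, a stricter filter, an intensity trend, fits on the compared groups alone, and leaving out arrays or numbers.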

Additional observations from a re-analysis of the deposited data

How the results depend on the processing

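The count of apolipoproteins called was 0 in all 5 comparisons without a block, and with the replicate block it was 1 (Apoe, lower) in WT IP against WT Input and 1 in KO IP against KO Input; those fits remove the differences between preparations. With quantile normalization added to the block, chosen after seeing the data, it was 0 again. The other alternatives, leaving out arrays included, gave 0 in every comparison they were run for, and the block changed no other call among the members. Quantile normalization, with or without the block, turned the KO IP against KO Input difference to 0.071 for Apoa4, 0.042 for Apoc2 and 0.066 for Apoh, and WT IP against KO IP to 0.00043 for Apoh. Subtraction of array medians turned WT IP against KO IP to -0.031 for Apoa1 and -0.049 for Apoa4. That subtraction moves every gene of this comparison by the same -0.0575, which is more than both differences; the cause of the reversals under quantile normalization was not tested.

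Leaving out 1 array, or 1 number from all groups, reversed 36 of the 50 gene differences at least once. A single array left out keeps its number in the other groups, so that differences between numbers enter the result. In specific enrichment Apoa2, Apoc1, Apoc2, Apoc3 and Apoh were below 0 in all 3 same-number differences, so that leaving out a whole number could not reverse them. The cause of the reversals was not tested beyond the share of variance by number given above. In WT IP against WT Input the range was -0.64 to 0.049 for Apoa2, -0.59 to 0.24 for Apoa4, -0.69 to 0.23 for Apoa5, -2.28 to 0.54 for Apob and -0.72 to 0.12 for Apoc2. In KO IP against KO Input the range was -0.55 to 0.30 for Apoa2, -0.38 to 0.30 for Apoa4, -0.36 to 0.087 for Apoa5, -1.18 to 0.67 for Apob, -0.50 to 0.24 for Apoc2 and -0.28 to 0.17 for Apoh. In specific enrichment the range was -0.089 to 0.066 for Apoa1, -0.61 to 0.24 for Apoa2, -0.53 to 0.30 for Apoa4, -0.60 to 0.33 for Apoa5, -1.87 to 0.44 for Apob, -0.77 to 0.44 for Apoc1, -0.59 to 0.25 for Apoc2, -0.44 to 0.11 for Apoc3, -0.20 to 0.035 for Apoe and -0.44 to 0.028 for Apoh. In WT IP against KO IP the range was -0.021 to 0.087 for Apoa1, -0.11 to 0.65 for Apoa2, -0.19 to 0.18 for Apoa4, -0.58 to 0.40 for Apoa5, -0.61 to 0.61 for Apoc1, -0.14 to 0.63 for Apoc2, -0.46 to 0.082 for Apoc3 and -0.25 to 0.19 for Apoh. In KO Input against WT Input the range was -0.12 to 0.039 for Apoa1, -0.54 to 0.29 for Apoa4, -0.28 to 0.14 for Apoa5, -1.31 to 1.01 for Apob, -0.46 to 0.083 for Apoc1, -0.19 to 0.22 for Apoc3 and -0.41 to 0.058 for Apoh. The other 14 kept their sign when arrays were left out, among them Apoe in WT IP against WT Input (-1.21 to -0.89) and KO IP against KO Input (-1.10 to -0.81), Apoa1 (-0.56 to -0.39 and -0.50 to -0.41), Apoc1 (-1.53 to -0.32 and -1.31 to -0.22) and Apoc3 (-0.74 to -0.20 and -0.57 to -0.094). The intervals of specific enrichment included 0 for all 10 members. The absolute scale of the values is limited by the unstated normalization and by the distance to the top of the array.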
